A study of Mus musculus with 12 samples.

Results

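The livers of Atf7-/- mice conceived by in vitro fertilization (IVF) were compared with the livers of Atf7-/- mice conceived by natural mating. The members were the 6 arrays, of 12 in the whole study, whose titles gave the Atf7 knockout genotype, with 3 arrays for each mode of conception. Each array measured total RNA of 1 liver on the Affymetrix Mouse Gene 1.0 ST platform, and values were on the log2 scale. The other 6 arrays held livers of wild-type (WT) mice conceived in the same ways, 3 for each. The study asked how conception by IVF alters liver transcripts and whether that alteration needs the stress-responsive factor ATF7.

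All mice were males of the C57BL6/JJmsSlc strain. The labels gave an age of 4 weeks, whereas the methods of the study gave a younger age, and the labels did not settle which was right. The Atf7-/- mice were offspring of Atf7-/- fathers and Atf7-/- mothers, so both groups compared here lacked intact Atf7 from the gametes onward. In the IVF group, oocytes of superovulated females were fertilized in human tubal fluid medium, and the embryos were moved on the next day into the oviducts of pseudopregnant ICR females. In the natural mating group, pups were carried by their own Atf7-/- mothers. The hormones, the medium, the transfer and the strain of the gestating female therefore all went with the IVF group and cannot be told apart. Her Atf7 genotype may have gone with that group too, as the ICR females were not described as Atf7-/-. The WT mice had WT parents, so this last difference enters the Atf7-/- comparison and any contrast of it with the WT comparison. Within each group the 3 livers came from pups of different recipients or, after natural mating, of different mothers. The time of day at which livers were taken is not given in the sources used here.

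ATF7 is a basic leucine zipper protein of the ATF2 subfamily. It binds cAMP response elements and recruits histone H3K9 methyltransferases to hold its target genes silent, and stress kinases that phosphorylate it release that silencing. The liver builds and exports fatty acids and cholesterol under the control of SREBP factors, which are cleaved and sent to the nucleus when cellular sterol is low or insulin is high. The same tissue keeps a strong circadian rhythm, in which BMAL1 and CLOCK drive the Per, Cry and Rev-erb repressors that in turn shut BMAL1 and CLOCK off.

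The genotype was checked with both Atf7 probe sets. Probe set 10433032 stood at 5.82, 6.11 and 5.94 in the natural mating Atf7-/- arrays and at 5.34, 5.68 and 5.52 in the IVF Atf7-/- arrays. The WT arrays stood at 8.94, 8.81 and 8.58 after natural mating and at 8.18, 8.38 and 7.56 after IVF, so every knockout array lay below every WT array. Probe set 10433034 was less discriminating, with 8.71, 8.61 and 8.72 in the natural mating arrays and 8.41, 8.43 and 8.28 in the IVF arrays, against 9.27, 8.87 and 8.92 and 8.7, 8.88 and 8.71 in the WT groups. Neither probe set passed the test between the 2 Atf7-/- groups (limma adjusted p = 0.171 and 0.108). Between the WT groups probe set 10433032 was lower after IVF, with a log2 difference of -0.74 (limma adjusted p = 0.0384). Probe set 10433034 differed there by -0.26 and did not pass (adjusted p = 0.19). The study itself reported no change of Atf7 mRNA or protein with IVF. Where in the gene either probe set lies was not looked up here.

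The arrays of one group resembled each other closely. Pearson's r over all probe sets ran from 0.989 to 0.990 among the natural mating Atf7-/- arrays and from 0.984 to 0.987 among the IVF Atf7-/- arrays. Array medians ran from 6.26 to 6.28 and from 6.26 to 6.31. On the first principal component, which carried 25.5% of the variance, the natural mating Atf7-/- arrays stood at -46.6, -51.2 and -45.5, and the other 9 arrays, IVF Atf7-/- and both WT groups, stood between 7.79 and 29.3. On the second component, with 20.5%, the IVF Atf7-/- arrays stood at 1.92, 27.9 and 13.3, nearer the WT IVF arrays (18.9 to 25.1) than the WT natural mating arrays (-42.5 to -39.0). IVF replicate 1 was alone at -43.0 on the fourth component. Both natural mating groups thus stood apart, the Atf7-/- group on the first component and the WT group on the second, and every Atf7-/- difference below is measured against the former. Why they stood apart was not tested.

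**Figure D1:**
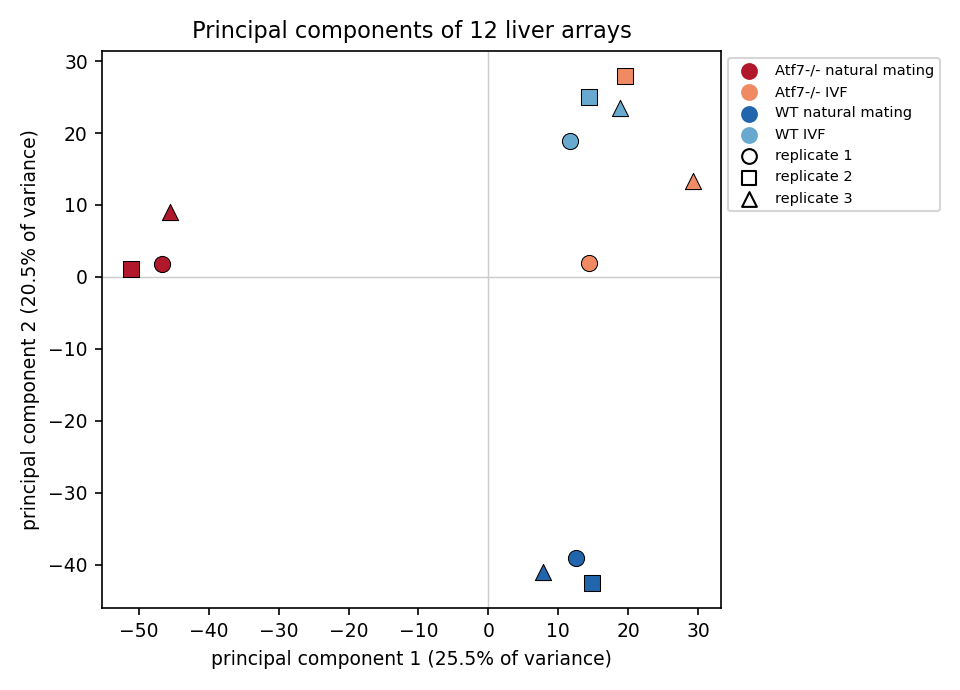
Principal components 1 and 2 of the 12 arrays over all probe sets, 1 point per array, coloured by group, with the share of variance on each axis. The 3 natural mating Atf7-/- arrays lie between -51.2 and -45.5 on component 1 and the other 9 arrays between 7.79 and 29.3.

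Of 34760 probe sets, 1136 (3.27%) were higher and 1220 (3.51%) were lower after IVF by the limits used here, an adjusted p no larger than 0.05 together with a log2 difference of at least 0.6 in size, or 1.52-fold. A probe set or gene that passed both limits is said here to have risen or fallen. The 3 IVF and 3 natural mating arrays did not overlap in 99.2% of the probe sets that rose and 99.3% of those that fell, against 32.2% of all probe sets. The test used the same values, so this separation is not separate support for it. Counted by gene, with the brightest probe set standing for each of 19937 symbols, 460 genes rose (2.31%) and 797 fell (4.00%). The counts of gene lists below are to be read beside these shares. The median log2 difference of the genes that passed was 0.75 in size among rises and 0.8 among falls, and 99 rises and 208 falls reached 1. Leaving out each of the 6 arrays in turn, 241 of the rises and 513 of the falls passed in all 6 fits. Among the probe sets that rose 39.4% carried no gene symbol, among those that fell 28.1% and among all probe sets 33.9%.

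The position of the natural mating Atf7-/- group was also counted gene by gene. Among the 460 genes that rose, the 3 natural mating Atf7-/- arrays lay below all other 9 arrays in 313 (68%), compared with 5.59% of all genes. Among the 797 that fell, they lay above all other 9 arrays in 613 (76.9%), compared with 8.94% of all genes. The IVF Atf7-/- arrays lay beyond the other 9 in 18 (3.91%) of the rises, compared with 0.532% of all genes. They did so in 69 (8.66%) of the falls, compared with 0.958% of all genes. These counts describe the order of the arrays and share their values with the test above.

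The largest falls and rises described next were taken only from genes whose IVF and natural mating arrays did not overlap. Separation of the groups was thus part of their selection. The deepest fall of a named gene was that of Mfsd2a, which encodes a transporter of lysophosphatidylcholine that carries docosahexaenoic acid. Its levels were 9.97, 10.96 and 10.77 in the natural mating arrays and 7.39, 6.34 and 6.89 in the IVF arrays, a log2 difference of -3.69 (SE 0.38, adjusted p = 0.000302). No natural mating array came within 2 log2 units of an IVF array. Akr1c18, the 20-alpha-hydroxysteroid dehydrogenase that inactivates progesterone, stood at 10.19, 11.01 and 11.05 in the natural mating arrays and 6.05, 8.94 and 6.51 in the IVF arrays, with a log2 difference of -3.59 (SE 0.63, adjusted p = 0.00418). IVF replicate 2 was well above the other two IVF arrays for this gene, as it was for many lipid genes described below. Cyp4a12a, a male-biased arachidonic acid hydroxylase, was at 7.46, 6.97 and 6.89 in the natural mating arrays and 3.99, 4.27 and 4.34 in the IVF arrays, a difference of -2.9 (SE 0.63, adjusted p = 0.0116). Cyp4a12a and Cyp4a12b are near-identical copies, so their signals may be shared. Endothelial lipase, Lipg, stood at 9.21, 9.67 and 8.84 in the natural mating arrays and 6.61, 6.6 and 6.1 in the IVF arrays, a difference of -2.8 (SE 0.24, adjusted p = 0.00014).

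The remaining 8 of the 12 deepest falls held further lipid genes. Fabp5, a fatty acid binding protein, differed by -2.84, and both of its probe sets fell. Acot2, a mitochondrial acyl-CoA thioesterase, differed by -2.75. Vnn1, a pantetheinase and known PPAR-alpha target, differed by -2.75. Acacb, the acetyl-CoA carboxylase whose product restrains fatty acid entry into mitochondria, differed by -2.72. Lpin1, a phosphatidate phosphatase and coactivator, differed by -2.66, and Serinc2, a membrane protein of the serine incorporator family, by -2.59. Rgs16, a regulator of G protein signalling with a daily rhythm in liver, differed by -2.69. Chrna4, a nicotinic receptor subunit, differed by -2.87. Adjusted p-values of these 8 lay between 0.00012 and 0.0129. Chrna4 no longer passed without natural mating replicate 2 or IVF replicate 3 (adjusted p from 0.0535 to 0.0582), and Rgs16 no longer passed without IVF replicate 3 (0.0578).

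Apart from small nucleolar RNAs, described below, the largest rise of a named gene was that of Sult2a3, a hydroxysteroid sulfotransferase, with 4.44, 4.09 and 5.08 in the natural mating arrays and 6.65, 7.27 and 7.5 in the IVF arrays, a log2 difference of 2.6 (SE 0.51, adjusted p = 0.00684). All 3 IVF arrays lay at least 1 log2 unit above the highest natural mating array. Tfrc, the transferrin receptor that takes up iron, stood at 7.05, 7.16 and 7.73 in the natural mating arrays and 9.07, 8.96 and 9.43 in the IVF arrays, a difference of 1.84 (SE 0.38, adjusted p = 0.00909). Srsf5, a splicing factor, was at 8.8, 8.81 and 8.81 in the natural mating arrays and 10.57, 10.3 and 10.65 in the IVF arrays, a difference of 1.69 (SE 0.21, adjusted p = 0.000631). The natural mating arrays of Srsf5 agreed to within 0.01, and all IVF arrays were more than 1 log2 unit above them. Amy1, an amylase, stood at 9.25, 9.19 and 9.32 in the natural mating arrays and 10.9, 10.66 and 11.03 in the IVF arrays, a difference of 1.61 (SE 0.16, adjusted p = 0.000261).

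Further rises among the 12 largest were those of the organic anion transporters Slc22a7 (1.71) and Slc22a26 (1.58), the polymeric immunoglobulin receptor Pigr (1.95), the estrogen sulfotransferase Sult1e1 (1.74), the cytochrome P450 Cyp3a16 (1.73), and Lrtm1 (1.74), Lonrf3 (1.66) and the clock gene Arntl (1.66). Several of these rested on all arrays being present. Pigr, Sult1e1 and Slc22a7 lost the call when any array other than IVF replicate 2 was left out (adjusted p from 0.0631 to 0.104, from 0.0670 to 0.118 and from 0.0560 to 0.0810). Cyp3a16 lost it without any 1 of the natural mating arrays (adjusted p from 0.0770 to 0.115). For Sult1e1, IVF replicate 2 at 3.58 lay close to the natural mating arrays, whose highest value was 3.38, while the other IVF arrays stood at 5.69 and 5.58. For Cyp3a16, IVF replicate 2 at 8.22 was the high array, against 5.87 and 6.1.

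Cholesterol synthesis was covered by a pair of lists. The mevalonate pathway makes the isoprenoid units from acetyl-CoA, and the enzymes after squalene synthase build the sterol ring and trim it to cholesterol. Of 7 mevalonate pathway genes measured, 4 fell and 0 rose, with a median log2 difference of -1.19, and of 11 genes from squalene to cholesterol, 8 fell and 0 rose, with a median of -1.27. Over all 19937 genes 4.00% fell, and the median was -0.01. The mean level of the 11 sterol genes was 10.23, 10.8 and 10.59 in the natural mating arrays and 8.95, 9.8 and 8.94 in the IVF arrays, without overlap.

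**Figure D2:**
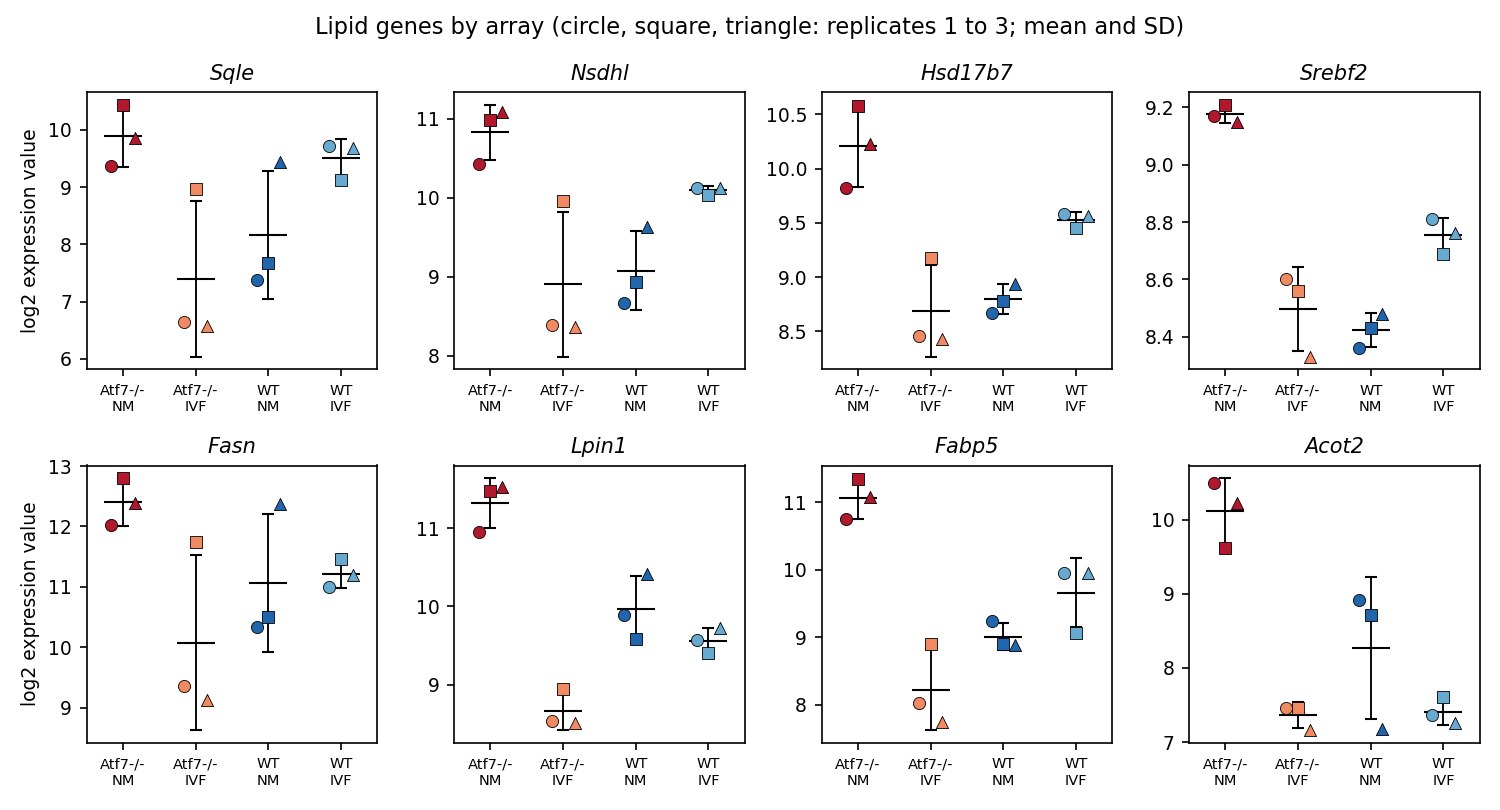
Log2 levels of 8 lipid genes in each of the 12 arrays, by group (NM, natural mating), with a marker shape per replicate and bars for the group mean and SD. The IVF Atf7-/- arrays lie below the natural mating Atf7-/- arrays for Sqle, Nsdhl and Fasn, and IVF replicate 2 is the highest of the 3 IVF arrays, with Sqle at 8.97 against 6.65 and 6.58.

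Within the mevalonate pathway, Fdps, the farnesyl diphosphate synthase, stood at 10.66, 11.36 and 11.19 in the natural mating arrays and 9.17, 10.28 and 9.09 in the IVF arrays, a log2 difference of -1.56 (SE 0.34, adjusted p = 0.0113). Mvk, the mevalonate kinase, stood at 8.49, 9.0 and 8.66 in the natural mating arrays and 7.76, 7.9 and 7.73 in the IVF arrays, a difference of -0.92 (SE 0.14, adjusted p = 0.00204), and was the one member that fell in every fit with an array left out. Mvd and Pmvk, the decarboxylase and the second kinase, differed by -1.44 and -1.19 (adjusted p = 0.02 and 0.0168). Idi1, the isopentenyl diphosphate isomerase, stood at 10.13, 10.68 and 10.82 in the natural mating arrays and 8.59, 10.18 and 9.27 in the IVF arrays, with a difference of -1.2 (SE 0.39, adjusted p = 0.072). IVF replicate 2 at 10.18 overlapped with the natural mating arrays, so the Idi1 difference did not pass, and without that array it did (adjusted p = 0.0195). The number of falls in this pathway was 1 without IVF replicate 3, 2 without natural mating replicate 2, 3 without natural mating replicate 3 or IVF replicate 1 and 6 without IVF replicate 2. Fdps lost its call without IVF replicate 3 (adjusted p = 0.0527), Mvd without natural mating replicate 2 or 3 or IVF replicate 3 (0.0581 to 0.0810), and Pmvk without natural mating replicate 2 or IVF replicate 1 or 3 (0.0541 to 0.0702).

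Beyond squalene, Sqle, the squalene epoxidase and a control point of the pathway, stood at 9.37, 10.44 and 9.86 in the natural mating arrays and 6.65, 8.97 and 6.58 in the IVF arrays, a log2 difference of -2.49 (SE 0.65, adjusted p = 0.0289). The groups did not overlap, but IVF replicate 2 lay more than 2 log2 units above the other IVF arrays. Nsdhl, which removes a methyl group from the sterol ring, was at 10.43, 10.98 and 11.08 in the natural mating arrays and 8.39, 9.96 and 8.36 in the IVF arrays, a difference of -1.93 (SE 0.39, adjusted p = 0.00812). Lss, the lanosterol synthase that closes the rings, was at 9.54, 10.41 and 10.11 in the natural mating arrays and 7.97, 8.72 and 7.96 in the IVF arrays, a difference of -1.8 (SE 0.28, adjusted p = 0.00215). Hsd17b7, a sterol ketoreductase, was at 9.82, 10.58 and 10.23 in the natural mating arrays and 8.46, 9.18 and 8.43 in the IVF arrays, a difference of -1.52 (SE 0.21, adjusted p = 0.00137). All 3 arrays of one group lay on one side of the other group for each of these genes. Sqle lost its call without natural mating replicate 2 or 3 or IVF replicate 1 or 3 (adjusted p from 0.0743 to 0.113), and 6 to 9 of the 11 genes fell when an array was left out.

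SREBP-2, encoded by Srebf2, is the factor that switches this pathway on, SCAP escorts it out of the endoplasmic reticulum and the INSIG proteins hold it back. Of 9 genes of this regulatory list, 4 fell (44.4%, against 4.00% of all genes) and 1 rose (11.1%, against 2.31%). Srebf2 stood at 9.17, 9.21 and 9.15 in the natural mating arrays and 8.6, 8.56 and 8.33 in the IVF arrays, a log2 difference of -0.68 (SE 0.09, adjusted p = 0.000919). The spread within each Srebf2 group was under 0.3, and the groups did not overlap. Scap fell by 0.97 on the log2 scale (SE 0.17, adjusted p = 0.00368). Insig1, itself an SREBP target, stood at 11.62, 12.13 and 11.61 in the natural mating arrays and 10.56, 10.93 and 10.25 in the IVF arrays with a difference of -1.2 (SE 0.31, adjusted p = 0.0279), whereas Insig2, which is not driven by SREBP, rose from 10.66, 10.75 and 11.02 to 11.32, 11.75 and 11.42, a difference of 0.68 (SE 0.2, adjusted p = 0.0418). Srebf1, which encodes the SREBP-1 proteins of fatty acid synthesis, did not pass, at 9.67, 10.27 and 9.47 in the natural mating arrays and 9.66, 9.95 and 9.7 in the IVF arrays (SE 0.33, adjusted p = 0.967). Without IVF replicate 3 the Srebf2 difference was -0.6, just under the size limit, with an adjusted p of 0.00419, and 2 of the 9 genes fell. Insig1 lost its call without any array other than IVF replicate 2 (adjusted p from 0.0543 to 0.108), and Insig2 without any array other than IVF replicate 1 (0.0506 to 0.138).

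The promoters of these genes were searched for the SREBP binding letters TCACNCCAC on both strands, in RefSeq windows from 250 bases before to 50 bases after the start of each gene (build GRCm38.p6). The motif was in 1 of 15 sterol enzyme genes that had a window, compared with 1.4% of all 15613 measured genes, 0.865% of genes that rose and 2.49% of genes that fell. The match was in the promoter of Hmgcs1, which encodes the HMG-CoA synthase at the entry of the mevalonate pathway. The sequence is shown because it is the sterol element that these letters found among the enzymes above, with the element in capitals, at chr13:119690184-119690252 on the plus strand, which is the strand of the gene.
Hmgcs1: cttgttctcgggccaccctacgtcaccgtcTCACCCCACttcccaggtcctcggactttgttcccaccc
Hmgcs1, taken up here for that match, stood at 10.72, 11.33 and 10.97 in the natural mating arrays and 9.75, 10.76 and 9.88 in the IVF arrays, a log2 difference of -0.87 (SE 0.26, adjusted p = 0.0506). IVF replicate 2 at 10.76 overlapped with the natural mating arrays, and without it the difference passed (adjusted p = 0.00781).

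Of 22 genes of fatty acid synthesis measured, 14 fell (63.6%, against 4.00% of all genes) and 0 rose, and the median log2 difference was -1.14. The mean level of the list was 10.77, 11.28 and 10.94 in the natural mating arrays and 9.36, 10.37 and 9.26 in the IVF arrays. Me1, the malic enzyme that supplies NADPH, stood at 11.29, 11.64 and 11.53 in the natural mating arrays and 8.13, 10.64 and 8.41 in the IVF arrays, a difference of -2.43 (SE 0.56, adjusted p = 0.0153), and both of its probe sets fell. Fasn, the fatty acid synthase, stood at 12.02, 12.8 and 12.39 in the natural mating arrays and 9.36, 11.74 and 9.13 in the IVF arrays, a difference of -2.33 (SE 0.66, adjusted p = 0.0415). IVF replicate 2 at 11.74 was within 0.3 of the lowest natural mating array for Fasn and more than 2 log2 units above the other IVF arrays. Acss2, an acetyl-CoA synthetase, differed by -1.89 (SE 0.45, adjusted p = 0.0177), and Scd1, the stearoyl-CoA desaturase, stood at 13.33, 13.34 and 13.42 in the natural mating arrays and 11.76, 13.28 and 11.75 in the IVF arrays, a difference of -1.1 (SE 0.32, adjusted p = 0.0475).

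The desaturases Fads1 and Fads2, which make polyunsaturated fatty acids, showed tighter groups. Fads1 stood at 12.69, 12.88 and 12.89 in the natural mating arrays and 12.06, 12.23 and 11.87 in the IVF arrays, a log2 difference of -0.77 (SE 0.11, adjusted p = 0.00168), and Fads2 at 12.9, 13.01 and 12.95 in the natural mating arrays and 12.32, 12.04 and 12.24 in the IVF arrays, a difference of -0.76 (SE 0.11, adjusted p = 0.00189). IVF replicate 2 was not the high array for Fads2. Mlxipl, which encodes the glucose-responsive factor ChREBP, fell by 0.75 (SE 0.16, adjusted p = 0.0118). Acly and Acaca, enzymes of early steps, differed by -1.29 and -0.86 and did not pass (adjusted p = 0.126 and 0.195), and both passed without IVF replicate 2 (0.0484 and 0.00491). The count of falls was 8 of 22 without natural mating replicate 2 or IVF replicate 3 and 18 without IVF replicate 2. Fasn and Scd1 lost the call without any array other than IVF replicate 2 (adjusted p from 0.0737 to 0.153 and from 0.107 to 0.172), Acss2 without natural mating replicate 2 or 3 or IVF replicate 1 or 3 (0.0585 to 0.0734), Me1 without natural mating replicate 2 or IVF replicate 3 (0.0525 to 0.0683), and Mlxipl without natural mating replicate 1 or IVF replicate 3 (up to 0.0548).

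Of 41 genes of fatty acid oxidation and other targets of PPAR-alpha, the nuclear receptor of fasting, 12 fell (29.3%, against 4.00% of all genes) and 0 rose, with a median of -0.4. In contrast to the synthesis genes, the 3 IVF arrays had the same list mean, 9.89 in each, against 10.59, 10.35 and 10.44 in the natural mating arrays. Acot2 stood at 10.49, 9.62 and 10.23 in the natural mating arrays and 7.46, 7.46 and 7.16 in the IVF arrays, its neighbour Acot1 at 7.24, 6.16 and 7.11 in the natural mating arrays and 5.28, 5.52 and 5.07 in the IVF arrays, and these thioesterases are close copies whose probes may share signal. Pltp, which transfers phospholipids between lipoproteins, stood at 11.06, 11.49 and 11.03 in the natural mating arrays and 9.2, 8.91 and 8.72 in the IVF arrays, a difference of -2.25 (SE 0.2, adjusted p = 0.000159). The receptor gene Ppara differed by -0.55, which had an adjusted p of 0.0493 but was under the size limit, and it reached both limits without IVF replicate 1 or 3 (0.0436 to 0.0487). Cpt1a, which admits fatty acids to mitochondria, differed by -0.54 and did not pass (SE 0.27, adjusted p = 0.242).

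Among 27 genes of lipoproteins and lipid transport, 2 rose (7.41%) and 4 fell (14.8%), with a median of -0.04. Over all genes the shares were 2.31% and 4.00%. Apoa4, an apolipoprotein induced by fat and by fasting, stood at 11.6, 12.09 and 11.71 in the natural mating arrays and 10.25, 10.36 and 10.25 in the IVF arrays, a log2 difference of -1.51 (SE 0.3, adjusted p = 0.00706). Apom, the apolipoprotein that carries sphingosine 1-phosphate, moved the other way, from 9.42, 9.72 and 9.44 to 10.72, 10.86 and 10.9, a difference of 1.3 (SE 0.12, adjusted p = 0.000158). The groups were apart for both genes. Mttp, which loads lipid onto nascent particles, differed by -0.31 and did not pass (SE 0.12, adjusted p = 0.142). The second rise of this list was lost without any array other than IVF replicate 2, which left 1.

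Clock genes differed in both directions. Of 5 genes listed as peaking with BMAL1, 3 rose and 1 fell, and of 15 genes listed in the opposite phase, 0 rose and 8 fell, with medians of 0.98 and -0.61. Among all genes 2.31% rose and 4.00% fell. Arntl, which encodes BMAL1, stood at 6.76, 6.45 and 7.17 in the natural mating arrays and 8.36, 8.46 and 8.53 in the IVF arrays, a log2 difference of 1.66 (SE 0.18, adjusted p = 0.00036). Its lowest IVF array was more than 1 log2 unit above its highest natural mating array. Nfil3, the repressor that competes at D-boxes, stood at 7.22, 7.04 and 7.67 in the natural mating arrays and 8.79, 8.77 and 8.56 in the IVF arrays, a difference of 1.4 (SE 0.27, adjusted p = 0.00606). Cry1, a repressor whose transcript trails the other repressors in the daily cycle, stood at 6.41, 6.58 and 6.7 in the natural mating arrays and 7.45, 7.79 and 7.38 in the IVF arrays, a difference of 0.98 (SE 0.19, adjusted p = 0.00772). Gys2, the liver glycogen synthase and a rhythmic target of CLOCK, fell from 11.5, 11.52 and 11.33 to 10.45, 10.62 and 10.49, a difference of -0.93 (SE 0.19, adjusted p = 0.0081). Whether Gys2 belongs in the list that peaks with BMAL1 was not checked here. Clock itself stood at 9.43, 9.1 and 9.45 in the natural mating arrays and 9.22, 9.28 and 9.34 in the IVF arrays and did not pass (SE 0.11, adjusted p = 0.843).

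Among the genes of the opposite phase, Per1, a core repressor, stood at 8.95, 8.76 and 8.76 in the natural mating arrays and 6.99, 6.79 and 6.73 in the IVF arrays, a log2 difference of -1.99 (SE 0.14, adjusted p = 7.43e-05). No array of Per1 strayed by more than 0.3 from its group. Ciart, a repressor of BMAL1 and CLOCK, stood at 7.76, 7.72 and 6.61 in the natural mating arrays and 5.58, 4.45 and 5.83 in the IVF arrays, a difference of -2.08 (SE 0.38, adjusted p = 0.00485), and both of its probe sets fell. Bhlhe40, another E-box repressor, stood at 10.4, 10.12 and 9.46 in the natural mating arrays and 8.19, 7.58 and 8.19 in the IVF arrays, a difference of -2.01 (SE 0.27, adjusted p = 0.000971). Dbp, the activator at D-boxes, stood at 9.57, 9.73 and 9.0 in the natural mating arrays and 7.93, 6.57 and 7.92 in the IVF arrays, a difference of -1.96 (SE 0.33, adjusted p = 0.00325). Nr1d1, which encodes REV-ERB-alpha, stood at 11.07, 10.75 and 10.49 in the natural mating arrays and 9.47, 8.75 and 9.02 in the IVF arrays, a difference of -1.69 (SE 0.28, adjusted p = 0.00305). Natural mating replicate 3 was the lowest of its group, and IVF replicate 2 the lowest of its own, for Ciart and Dbp.

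Per2 and Per3 moved less. Per2 stood at 7.98, 8.25 and 7.96 in the natural mating arrays and 7.51, 7.42 and 7.57 in the IVF arrays, a log2 difference of -0.57 (SE 0.14, adjusted p = 0.025), under the size limit with all arrays and past it without natural mating replicate 3. Per3 stood at 8.05, 8.33 and 7.6 in the natural mating arrays and 7.78, 7.01 and 7.73 in the IVF arrays, a difference of -0.49 (SE 0.22, adjusted p = 0.192), and its groups overlapped. Leaving out each array in turn, 6 to 10 of the 15 genes fell, and the counts of the BMAL1-phase list stayed at 3 and 1.

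**Figure D3:**
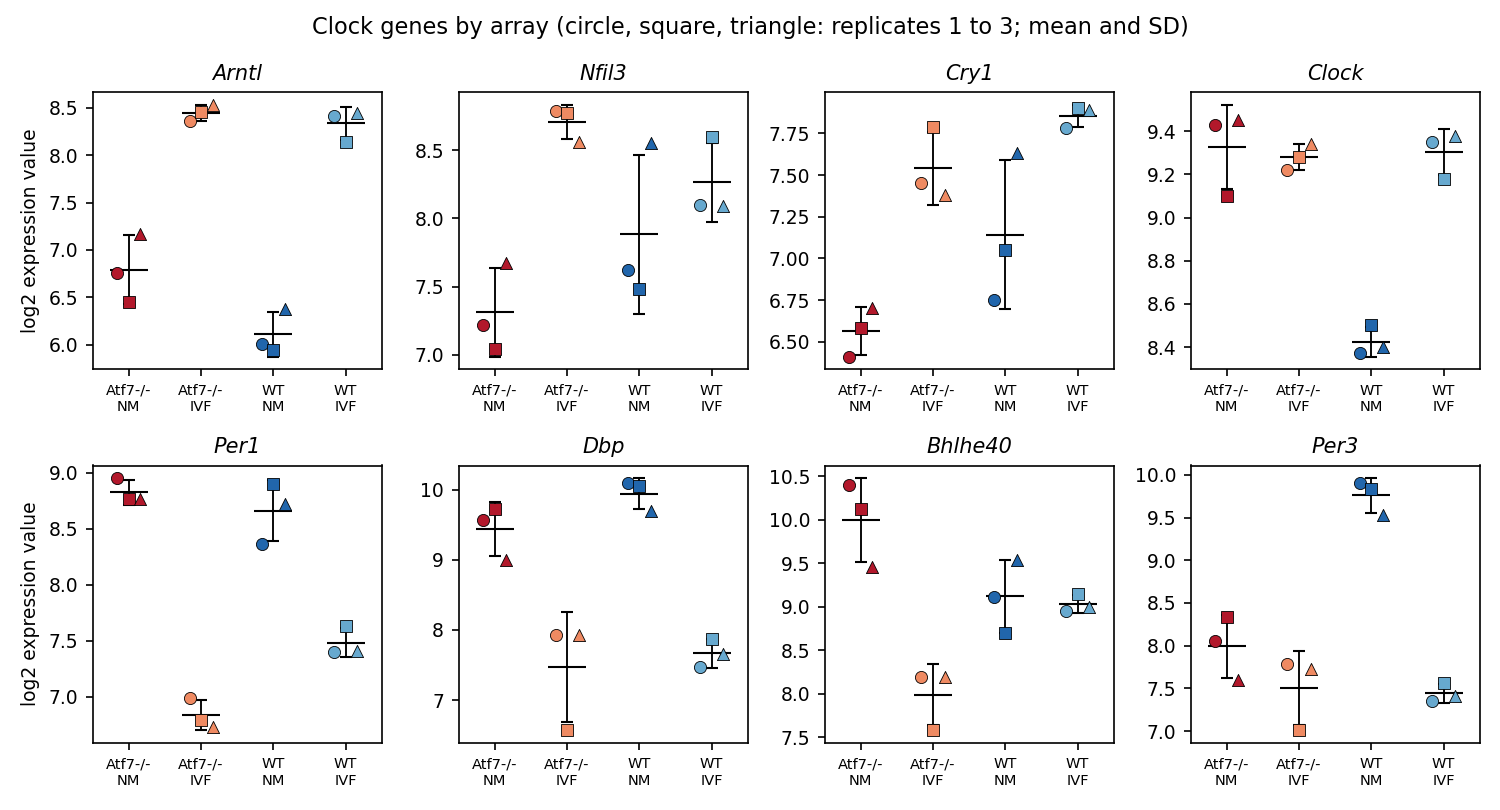
Log2 levels of 8 clock genes in each of the 12 arrays, by group (NM, natural mating), with a marker shape per replicate and bars for the group mean and SD. Arntl lies between 6.45 and 7.17 in the natural mating Atf7-/- arrays and between 8.36 and 8.53 in the IVF Atf7-/- arrays, while Per1 lies between 8.76 and 8.95 and between 6.73 and 6.99.

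BMAL1 and CLOCK bind the E-box CACGTG, and DBP and NFIL3 bind the D-box TTATGTAA. In the RefSeq windows, searched on both strands, an E-box stood in 5 of 16 clock genes with a window, in 15.7% of 643 genes that fell, in 9.8% of 347 genes that rose and in 9.5% of all 15613. A D-box stood in 1 of the 16, in 0.467% of the falls, in 1.44% of the rises and in 0.999% of all. None of the searched motifs contains another. The windows below, from build GRCm38.p6, are printed on the strand of the gene with the motifs in capitals, because they put the E-boxes of genes that fell (Ciart and Per1) beside that of a gene that rose (Cry1). They come from chr3:95882251-95882316 (minus strand, Ciart), chr11:69098753-69098818 (plus strand, Per1) and chr10:85185079-85185144 (minus strand, Cry1).
Ciart: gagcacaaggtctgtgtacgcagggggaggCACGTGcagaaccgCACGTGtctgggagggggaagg
Per1: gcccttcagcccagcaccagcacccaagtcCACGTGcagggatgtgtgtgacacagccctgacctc
Cry1: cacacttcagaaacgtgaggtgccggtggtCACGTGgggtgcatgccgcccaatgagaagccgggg
The Per3 promoter held D-boxes at 2 places, chr4:151044786-151044853 and chr4:151044833-151044900 on the minus strand, shown because no other gene of the clock lists had one.
Per3, nearer the start: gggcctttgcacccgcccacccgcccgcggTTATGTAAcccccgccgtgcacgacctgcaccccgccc
Per3, farther from the start: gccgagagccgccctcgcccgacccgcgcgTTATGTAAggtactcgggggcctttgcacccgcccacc
A perfect E-box was thus present both in genes that fell and in a gene that rose, and these matches describe letters in a window, not binding. The cAMP response element TGACGTCA, the site of the ATF2 subfamily, stood in 5.19% of the genes that rose, 4.35% of those that fell and 2.72% of all.

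Of 27 genes of glucose and glycogen metabolism measured, 6 fell (22.2%, against 4.00% of all genes) and 0 rose. Their median was -0.26, with 4 to 8 falls when an array was left out. Ppp1r3g, a glycogen-targeting subunit of protein phosphatase 1, stood at 7.9, 8.22 and 8.53 in the natural mating arrays and 6.61, 6.62 and 6.83 in the IVF arrays, a log2 difference of -1.53 (SE 0.22, adjusted p = 0.00155). Pklr, the liver pyruvate kinase and a ChREBP target, stood at 12.51, 12.58 and 12.62 in the natural mating arrays and 10.82, 12.16 and 10.76 in the IVF arrays, a difference of -1.32 (SE 0.33, adjusted p = 0.0228). IVF replicate 2 again lay nearest to the natural mating arrays for Pklr, which lost the call without any array other than that one (adjusted p from 0.0592 to 0.0938). The gluconeogenic enzymes G6pc and Pck1 differed by -0.23 and -0.57 and did not pass (adjusted p = 0.56 and 0.057).

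Glutathione transferases, which conjugate reactive compounds, fell in 7 of 19 members (36.8%, against 4.00% of all genes) and rose in 0. Their median was -0.26, with 5 to 8 falls when an array was left out. Gstt2 stood at 9.15, 8.61 and 8.64 in the natural mating arrays and 7.51, 7.05 and 6.93 in the IVF arrays, a log2 difference of -1.63 (SE 0.26, adjusted p = 0.00261). Gstt3 stood at 9.24, 9.41 and 9.62 in the natural mating arrays and 8.23, 7.77 and 8.21 in the IVF arrays, a difference of -1.35 (SE 0.16, adjusted p = 0.000544). The groups were apart by more than 1 log2 unit for both genes. Gstp1 fell by 0.89 (SE 0.22, adjusted p = 0.0232), and lost the call without natural mating replicate 1 or IVF replicate 3 (adjusted p from 0.0748 to 0.0900). Several transferases are close copies of each other, and their probes may share signal.

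Of 21 genes of the NRF2 and glutathione list, which answer to oxidative stress, 1 rose (4.76%) and 4 fell (19%). Over all genes the shares were 2.31% and 4.00%. Nfe2l2, which encodes NRF2, stood at 10.65, 10.48 and 10.45 in the natural mating arrays and 9.62, 9.97 and 9.94 in the IVF arrays, a log2 difference of -0.68 (SE 0.11, adjusted p = 0.0033), and was under the size limit at -0.57 without IVF replicate 1. Pgd, an enzyme of the pentose phosphate pathway that yields NADPH, stood at 9.99, 10.23 and 10.3 in the natural mating arrays and 8.22, 9.1 and 8.17 in the IVF arrays, a difference of -1.67 (SE 0.22, adjusted p = 0.00103). Oplah, which recycles oxoproline into glutamate for glutathione, stood at 9.56, 9.6 and 9.4 in the natural mating arrays and 8.87, 8.48 and 8.93 in the IVF arrays, a difference of -0.76 (SE 0.13, adjusted p = 0.00326). Hmox1, the heme oxygenase, fell by 0.74 (SE 0.14, adjusted p = 0.0057). Nfe2l2, Pgd, Oplah and Hmox1 all showed groups that did not overlap.

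Heme and iron genes fell in 5 of 25 members (20%, against 4.00% of all genes) and rose in 1 (4%, against 2.31%). The falls numbered 2 without IVF replicate 3 and 3 without natural mating replicate 1. Ftl1, the ferritin light chain that stores iron, stood at 10.19, 9.94 and 9.95 in the natural mating arrays and 8.34, 8.83 and 8.85 in the IVF arrays, a log2 difference of -1.35 (SE 0.17, adjusted p = 0.000685). Tfrc, described above, is the gene that rose, so the iron store gene and the iron uptake gene moved in opposite directions. Alas1, the controlling step of heme production in liver, stood at 10.93, 11.28 and 11.66 in the natural mating arrays and 10.12, 9.86 and 10 in the IVF arrays, a difference of -1.3 (SE 0.3, adjusted p = 0.0158). Id1, a target of the BMP signal that senses iron, fell by 1.27 (SE 0.32, adjusted p = 0.0233). Hamp, the iron hormone hepcidin, stood at 12.23, 12.08 and 12.36 in the natural mating arrays and 10.24, 11.11 and 9.57 in the IVF arrays and did not pass in the fit over 12 arrays (SE 1.58, adjusted p = 0.515). In a fit of the 6 Atf7-/- arrays alone Hamp passed (adjusted p = 0.0199). Alas1 lost its call without natural mating replicate 3 or IVF replicate 2 or 3 (adjusted p from 0.0524 to 0.0635), and Id1 without natural mating replicate 1 or 2 or IVF replicate 1 or 3 (0.0643 to 0.0893).

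Bile acid genes were divided. Of 20 measured, 3 rose (15%, against 2.31% of all genes) and 3 fell (15%, against 4.00%), with a median of 0.0. The falls numbered 0 without natural mating replicate 1 and 1 without natural mating replicate 3 or IVF replicate 2 or 3. Slco1a4, an uptake transporter, stood at 10.12, 9.7 and 9.96 in the natural mating arrays and 11.08, 11.24 and 11.45 in the IVF arrays, a log2 difference of 1.33 (SE 0.24, adjusted p = 0.00449). Akr1d1, the steroid 5-beta-reductase of bile acid synthesis, stood at 9.9, 10.13 and 10.12 in the natural mating arrays and 11.18, 10.97 and 11.29 in the IVF arrays, a difference of 1.09 (SE 0.11, adjusted p = 0.000253). Cyp7a1, which sets the pace of bile acid production from cholesterol, stood at 10.4, 9.5 and 10.72 in the natural mating arrays and 11.8, 10.29 and 12.08 in the IVF arrays, and its overlapping groups did not pass, with a difference of 1.18 (SE 0.57, adjusted p = 0.224).

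Among 23 genes of steroid metabolism, 4 rose (17.4%) and 2 fell (8.7%) with all arrays, against 2.31% and 4.00% of all genes. Akr1c20, Hsd3b2 and Akr1c6 rose by 1.0, 0.89 and 0.86 (adjusted p = 0.00483, 0.00156 and 0.00164), while Akr1c18 of the same aldo-keto reductase family fell. The second fall was lost without any 1 of the 6 arrays, which left 1. Of 32 xenobiotic P450 genes, 4 rose (12.5%) and 0 fell. Cyp3a25 stood at 12.08, 11.87 and 12.17 in the natural mating arrays and 12.73, 12.85 and 12.95 in the IVF arrays, a difference of 0.8 (SE 0.14, adjusted p = 0.00405). Only 1 P450 rose without any single natural mating array, and 2 rose without IVF replicate 3. Of 23 genes of conjugation, 2 rose (8.7%), Sult1e1 and Sult1d1, and 1 rose without natural mating replicate 2 or 3 or IVF replicate 3. Sult1d1, a sulfotransferase, stood at 10.67, 10.54 and 10.88 in the natural mating arrays and 11.47, 11.69 and 11.76 in the IVF arrays, a difference of 0.94 (SE 0.14, adjusted p = 0.00149).

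Amino acid enzymes gave 4 rises (8%, against 2.31% of all genes) and 2 falls (4%, against 4.00%) of 50 measured, with a median of 0.21. Cth, the cystathionine gamma-lyase that makes cysteine, stood at 10.76, 10.65 and 10.67 in the natural mating arrays and 12.01, 11.43 and 12.11 in the IVF arrays, a log2 difference of 1.16 (SE 0.17, adjusted p = 0.0016). Bhmt, which remethylates homocysteine with betaine, stood at 11.94, 11.87 and 12.16 in the natural mating arrays and 13.05, 12.45 and 13.25 in the IVF arrays, a difference of 0.92 (SE 0.18, adjusted p = 0.00741), though 1 of its 3 probe sets rose. Shmt2, the mitochondrial serine hydroxymethyltransferase, fell by 1.1 (SE 0.14, adjusted p = 0.000693). Glul, the glutamine synthetase of hepatocytes around the central vein, stood at 11.96, 11.7 and 11.91 in the natural mating arrays and 10.24, 10.99 and 10.14 in the IVF arrays, a difference of -1.4 (SE 0.39, adjusted p = 0.0396). It lost the call without any array other than IVF replicate 2 (adjusted p from 0.0815 to 0.135), which left 1 fall in the list. Cps1, the entry enzyme of the urea cycle, differed by 0.47 with an adjusted p of 0.0147, under the size limit.

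Of 28 complement genes, 4 rose and 0 fell, with a median of 0.22, where 2.31% of all genes rose. C9, the pore-forming component, stood at 9.9, 9.99 and 9.75 in the natural mating arrays and 11.18, 10.96 and 11.54 in the IVF arrays, a log2 difference of 1.34 (SE 0.22, adjusted p = 0.00281). Mbl1, a lectin of the complement system that binds mannose, stood at 9.98, 9.88 and 10.1 in the natural mating arrays and 10.55, 10.67 and 10.9 in the IVF arrays, a difference of 0.72 (SE 0.19, adjusted p = 0.029), which was lost without any array other than IVF replicate 1 (adjusted p from 0.0559 to 0.111). The complement list had 1 rise without natural mating replicate 2 or IVF replicate 3 and 2 rises without natural mating replicate 1 or 3 or IVF replicate 1. Of 31 coagulation genes, F13b alone rose (3.23%, near the share over all genes), from 10.11, 9.91 and 10.01 to 10.51, 10.74 and 10.92, a difference of 0.71 (SE 0.13, adjusted p = 0.00483). Fga, the fibrinogen alpha chain, stood at 13.04 and 12.97 on average and did not pass (SE 0.09, adjusted p = 0.708), while another probe set of the gene rose. Of 23 acute phase genes, 3 rose (13%), among them Itih3 (0.76) and Apcs (0.73), and 1 rose without IVF replicate 3.

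Interferon-stimulated genes gave 3 falls (8.11%, against 4.00% of all genes) and 0 rises of 37. Their median was -0.17, with 3 or 4 falls when an array was left out. Cxcl10, a chemokine, stood at 8.68, 8.89 and 9.13 in the natural mating arrays and 7.41, 6.78 and 6.58 in the IVF arrays, a log2 difference of -1.98 (SE 0.34, adjusted p = 0.00382). Usp18, which removes the ubiquitin-like ISG15, stood at 9.65, 9.2 and 9.36 in the natural mating arrays and 8.28, 8.26 and 8.13 in the IVF arrays, a difference of -1.18 (SE 0.14, adjusted p = 0.00055). Oasl2 differed by -0.96 (SE 0.2, adjusted p = 0.0101). No gene of antigen presentation passed, of 19. Genes of the ATF4 and unfolded protein responses gave 2 rises (6.06%) and 3 falls (9.09%) of 33, with 1 rise left without any 1 of the 6 arrays. Heat shock genes gave 2 rises (10%) and 1 fall (5%) of 20, with 4 rises without IVF replicate 1. Over all genes the shares were 2.31% and 4.00%.

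Of 56 ribosomal protein genes, 20 rose (35.7%, against 2.31% of all genes) and 1, Rps15, fell, with a median of 0.38. Their mean level was 10.21, 10.14 and 10.15 in the natural mating arrays and 10.57, 10.58 and 10.58 in the IVF arrays, so that the groups were further apart than the spread within them. Rps25 stood at 9.53, 9.46 and 9.57 in the natural mating arrays and 10.8, 11.06 and 11.34 in the IVF arrays, a log2 difference of 1.55 (SE 0.15, adjusted p = 0.000226). Rps3a1 stood at 7.48, 7.54 and 7.28 in the natural mating arrays and 8.53, 8.4 and 8.58 in the IVF arrays, a difference of 1.07 (SE 0.11, adjusted p = 0.000256), and Rpl38 at 11.23, 11.2 and 11.23 in the natural mating arrays and 12.05, 12.36 and 12.3 in the IVF arrays, a difference of 1.02 (SE 0.1, adjusted p = 0.00024). Rpl5, which carries 5S rRNA into the ribosome, rose by 1.32 (SE 0.22, adjusted p = 0.00322). Ribosomal protein genes have many near-identical processed copies, so signal may be shared between them. Over all 198 ribosomal protein probe sets 49 rose (24.7%) and 2 fell. The gene count was 19 or 20 with any array left out.

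Of 69 spliceosome genes, 17 rose (24.6%, against 2.31% of all genes) and 0 fell, with a median of 0.25. Their mean level was 8.72, 8.71 and 8.71 against 8.9, 9.04 and 8.96. Hnrnpc stood at 8.62, 8.4 and 8.38 in the natural mating arrays and 9.71, 9.55 and 9.39 in the IVF arrays, a log2 difference of 1.08 (SE 0.14, adjusted p = 0.000762). Hnrnpm stood at 8.95, 8.96 and 8.97 in the natural mating arrays and 9.74, 9.88 and 10.02 in the IVF arrays, a difference of 0.92 (SE 0.11, adjusted p = 0.000492), and Hnrnph1 rose by 0.95 (SE 0.13, adjusted p = 0.00126). The natural mating arrays of Hnrnpm and Hnrnph1 agreed to within 0.02. Without IVF replicate 2 or 3 the count of rises was 11. Of 73 nuclear genes of oxidative phosphorylation, 14 rose (19.2%) and 2 fell (2.74%, against 4.00% of all genes), with a median of 0.21. Among the rises were Ndufa5 of complex I (0.86, adjusted p = 0.00029) and Uqcr11 of complex III (0.82, adjusted p = 0.00191). The falls there numbered 1 without natural mating replicate 2 or IVF replicate 3. Of 42 proteasome genes, 5 rose (11.9%) and 0 fell, led by Psma3 (1.01, adjusted p = 0.00346). Mitochondrial ribosomal proteins went both ways, with 6 rises (8%) and 5 falls (6.67%) of 75, and 2 falls without IVF replicate 3 and 3 without natural mating replicate 1. Mrps18c rose by 1.11 (SE 0.11, adjusted p = 0.000237).

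Small nucleolar RNAs, which guide the modification of ribosomal RNA, rose in 24 of 53 probe sets (45.3%, against 3.27% of all probe sets) and fell in 0. Their median was 0.6, and 22 to 25 rose with any array left out. Their mean level was 7.03 in natural mating Atf7-/-, 7.86 in IVF Atf7-/-, 8.52 in natural mating WT and 7.86 in IVF WT livers. Snord118, known as U8, stood at 7.32, 8.38 and 8.11 in the natural mating arrays and 11.93, 11.75 and 11.68 in the IVF arrays, a log2 difference of 3.85 (SE 0.35, adjusted p = 0.000159), and at 11.14, 12.48 and 12.54 in the natural mating WT arrays. Snora73a and Snora73b, close copies of each other, rose by 3.38 and 3.38 (adjusted p = 7.43e-05 and 8.23e-05). These 3 were singled out after their values were seen. Among other noncoding transcripts that rose, Malat1, a long nuclear RNA, stood at 10.26, 10.44 and 10.34 in the natural mating arrays and 11.64, 11.08 and 11.64 in the IVF arrays, a difference of 1.1 (SE 0.15, adjusted p = 0.001), and the vault RNA Vaultrc5 at 7.42, 7.97 and 7.82 in the natural mating arrays and 9.23, 8.83 and 9.08 in the IVF arrays, a difference of 1.31 (SE 0.2, adjusted p = 0.00197). No measure of RNA integrity was used here, and the part that RNA preparation had in these transcript classes was not tested.

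Genes of nucleotide synthesis passed the limits about as often as all genes (2.31% rises and 4.00% falls). Of 47 purine genes, 1 rose (2.13%) and 2 fell (4.26%), and of 29 pyrimidine genes, 0 rose and 2 fell (6.9%), with medians of -0.05 and 0.01. Nudt9, an ADP-ribose hydrolase, stood at 9.81, 9.68 and 9.89 in the natural mating arrays and 8.45, 8.52 and 8.59 in the IVF arrays, a log2 difference of -1.28 (SE 0.11, adjusted p = 0.00014). Uprt stood at 7.91, 7.67 and 7.89 in the natural mating arrays and 6.43, 6.42 and 6.28 in the IVF arrays, a difference of -1.45 (SE 0.11, adjusted p = 7.43e-05), and both of its probe sets fell. Uck2, the uridine-cytidine kinase of nucleotide salvage, stood at 8.79, 8.79 and 8.73 in the natural mating arrays and 7.66, 7.58 and 7.62 in the IVF arrays, a difference of -1.15 (SE 0.16, adjusted p = 0.00112). The groups were more than 1 log2 unit apart for each of these. Nt5e, the ecto-enzyme that makes adenosine from AMP, stood at 9.31, 9.35 and 9.68 in the natural mating arrays and 9.41, 9.69 and 9.79 in the IVF arrays and did not pass (SE 0.16, adjusted p = 0.537). The purine falls numbered 1 without natural mating replicate 1 or 2 or IVF replicate 1 or 3, and the purine rises 3 without IVF replicate 1.

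Cell cycle genes followed single arrays. Of 52 measured, 3 fell (5.77%, near the 4.00% of all genes) and 0 rose, with a median of -0.19. The list means were 7.03, 6.88 and 7.56 in the natural mating arrays and 6.56, 7.68 and 6.59 in the IVF arrays, so natural mating replicate 3 and IVF replicate 2 were the high arrays of their groups. Mki67, the proliferation antigen, stood at 7.9, 7.61 and 8.91 in the natural mating arrays and 7.0, 9.05 and 7.29 in the IVF arrays and did not pass (SE 0.48, adjusted p = 0.714). Top2a and Cdk1 had the same order of arrays, with differences of 0.27 and -0.04 (adjusted p = 0.795 and 0.97). Ccnd1, the cyclin of the G1 phase, stood at 10.07, 10.54 and 10.69 in the natural mating arrays and 8.91, 9.69 and 8.52 in the IVF arrays, a log2 difference of -1.4 (SE 0.33, adjusted p = 0.0183), and E2f8, an atypical E2F repressor, differed by -1.15 (SE 0.26, adjusted p = 0.015). The licensing factor Cdt1 fell by 0.61 (SE 0.13, adjusted p = 0.00932). The count of falls was 0 without IVF replicate 3, 1 without natural mating replicate 3 or IVF replicate 1 and 8 without IVF replicate 2. Ccnd1 lost its call without natural mating replicate 2 or 3 or IVF replicate 1 or 3 (adjusted p from 0.0511 to 0.0780), E2f8 without natural mating replicate 3 or IVF replicate 3 (0.0569 to 0.0665), and Cdt1 was under the size limit without natural mating replicate 1 or IVF replicate 1 or 3 (-0.58 to -0.55).

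Of 19 genes of ATF and AP-1 factors with their kinases, phosphatase and coactivators, Dusp1 alone passed (5.26% fell, against 4.00% of all genes). Dusp1, a phosphatase that switches off the stress kinases p38 and JNK, stood at 10.99, 11 and 9.79 in the natural mating arrays and 8.26, 8.23 and 8.24 in the IVF arrays, a log2 difference of -2.35 (SE 0.26, adjusted p = 0.000366). The 3 IVF arrays agreed to within 0.03, while natural mating replicate 3 was more than 1 log2 unit below its group. Atf2, the closest relative, stood at 9.34, 9.19 and 9.17 in the natural mating arrays and 9.15, 9.17 and 9.04 in the IVF arrays and did not pass (SE 0.09, adjusted p = 0.55).

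Of 20 genes of H3K9 methylation and heterochromatin, 2 rose (10%, against 2.31% of all genes) and 0 fell. Cbx3, which encodes the H3K9 methyl reader HP1-gamma, stood at 9.31, 8.79 and 9.21 in the natural mating arrays and 10.44, 10.5 and 10.61 in the IVF arrays, a log2 difference of 1.41 (SE 0.14, adjusted p = 0.000233). It has 6 probe sets, of which 3 rose, and processed copies of the gene may share its signal. The second rise was lost without natural mating replicate 3 or IVF replicate 3. Of 14 genes of DNA methylation, 2 fell. Gadd45b, a stress-induced factor tied to demethylation, stood at 8.29, 8.14 and 7.26 in the natural mating arrays and 6.6, 6.87 and 6.13 in the IVF arrays, a difference of -1.37 (SE 0.28, adjusted p = 0.00832). Mbd1, a methyl-CpG reader, fell by 0.63 (SE 0.1, adjusted p = 0.0021), and was under the size limit at -0.56 without IVF replicate 2. The methyltransferases Dnmt1 and Dnmt3a differed by 0.05 and -0.01 (adjusted p = 0.889 and 0.978).

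Among 26 imprinted genes, 2 rose (7.69%, against 2.31% of all genes) and 2 fell (7.69%, against 4.00%). Phlda2, a maternally expressed growth suppressor, stood at 7.48, 7.64 and 7.06 in the natural mating arrays and 6.09, 6.53 and 6.1 in the IVF arrays, a log2 difference of -1.16 (SE 0.18, adjusted p = 0.00218). Peg10, a paternally expressed gene of retrotransposon origin, stood at 7.91, 7.55 and 7.49 in the natural mating arrays and 6.54, 6.58 and 6.46 in the IVF arrays, a difference of -1.12 (SE 0.16, adjusted p = 0.00164). Ndn, which encodes necdin, stood at 5.77, 5.91 and 6.09 in the natural mating arrays and 6.56, 6.95 and 7.1 in the IVF arrays, a difference of 0.94 (SE 0.15, adjusted p = 0.00221). Igf2, the fetal growth factor, stood at 6.59, 6.58 and 6.53 in the natural mating arrays and 7.45, 7.32 and 6.96 in the IVF arrays, a difference of 0.68 (SE 0.14, adjusted p = 0.0109), and without IVF replicate 1 it was under the size limit at 0.57. Mest, a paternally expressed hydrolase, stood at 8.11, 8.18 and 8.85 in the natural mating arrays and 8.07, 7.7 and 8.0 in the IVF arrays and did not pass (SE 0.24, adjusted p = 0.269). Igf2 was also the one gene of 14 fetal liver genes that passed (7.14% rose), and none passed without IVF replicate 1.

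The growth hormone axis and sex-biased genes gave 0 rises and 2 falls of 25 (8%, against 4.00% of all genes). Both falls were the Cyp4a12 copies, of which 1 was left when any of the 6 arrays was omitted. Ghr, the growth hormone receptor, differed by 0.38 with an adjusted p of 0.0228, under the size limit. Igf1, its main target, stood at 11.81, 11.71 and 11.97 in the natural mating arrays and 12.06, 12.02 and 12.05 in the IVF arrays, a difference of 0.21 that did not pass (SE 0.1, adjusted p = 0.23). Stat5b, the factor between them, differed by 0.15 (SE 0.11, adjusted p = 0.475).

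Markers of the cell types a liver can hold were set beside these results. In bulk RNA, fewer cells of a type and less RNA per cell cannot be told apart. Of 15 hepatocyte markers, 0 rose and 2 fell (13.3%, against 4.00% of all genes), Glul and Hnf4a. The median difference was 0.03, with 8 members positive and 7 negative. The list mean was 12.9 to 12.97 in the natural mating arrays and 12.66 in each IVF array, and the lowest member was Hamp at -1.92, followed by Glul at -1.4. The Glul fall depended on arrays as given above. Hnf4a, a master factor of hepatocytes, stood at 11.74, 11.69 and 11.78 in the natural mating arrays and 10.94, 10.99 and 11.02 in the IVF arrays, a log2 difference of -0.76 (SE 0.12, adjusted p = 0.00252). None of 19 endothelial, 18 Kupffer cell, 19 stellate cell or 9 bile duct markers passed by the brightest probe set, and 2 stellate cell markers rose by the mean of all probe sets. Without natural mating replicate 1 or 2 or IVF replicate 1 a single endothelial marker fell, and without IVF replicate 1 a single Kupffer cell marker fell. Lymphocyte markers rose in 3 of 17 (17.6%, against 2.31% of all genes), and their list means were 5.79 to 5.81 and 5.99 to 6.08. Ptprc, the leukocyte antigen CD45, stood at 7.21, 7.22 and 7.08 in the natural mating arrays and 7.83, 8.04 and 8.04 in the IVF arrays, a difference of 0.8 (SE 0.18, adjusted p = 0.0136). Cd3g of T cells and Ms4a1 of B cells rose by 0.74 and 0.71 (adjusted p = 0.0254 and 0.032).

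The lymphocyte rises numbered 0 without natural mating replicate 3 or IVF replicate 3 and 1 without natural mating replicate 2 or IVF replicate 2. Ptprc had adjusted p-values of 0.0506 to 0.0543, Cd3g of 0.0553 to 0.0916 and Ms4a1 of 0.0650 to 0.120 in the fits where they did not pass. Of 14 neutrophil markers, Ngp and S100a9 rose by 0.99 and 0.78 (adjusted p = 0.0395 and 0.0241). The neutrophil list means overlapped, at 5.26 to 5.36 and 5.28 to 5.71. Ngp did not pass without any array other than IVF replicate 2 (0.0877 to 0.135), and S100a9 without natural mating replicate 1 or 3 or IVF replicate 1 or 3 (0.0539 to 0.0906). Of 10 erythroid markers Tfrc alone passed (10% rose), with list means of 6.12 to 6.31 and 6.42 to 6.51. Of 20 markers of pancreas, muscle, gut and fat 1 rose (5%), and none did without any array other than IVF replicate 2. The part of these cell types in the differences above was not tested.

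**Figure D4:**
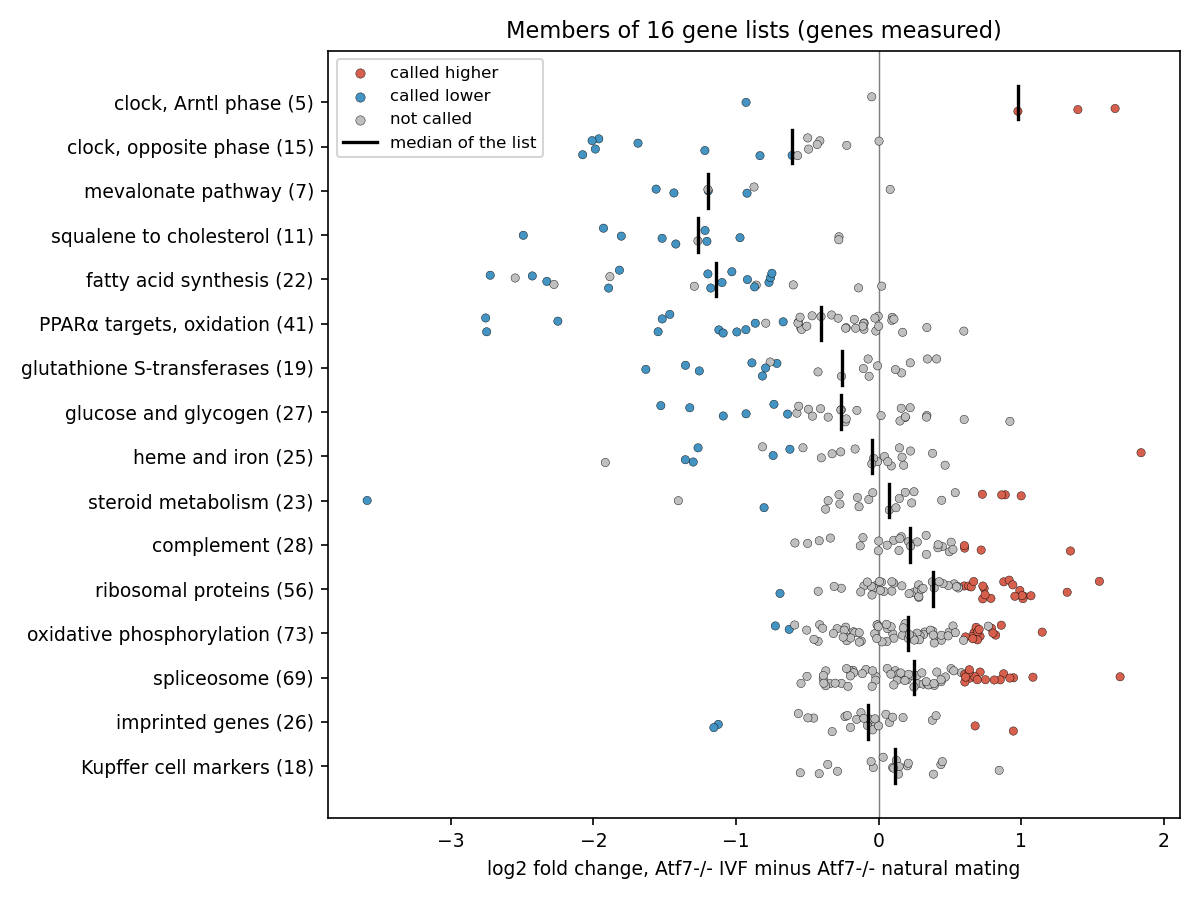
Log2 difference of IVF minus natural mating in Atf7-/- liver for each gene of 16 lists, 1 point per gene, coloured where the gene rose (red) or fell (blue), with the list median as a bar and the number of genes in brackets. The medians of the mevalonate, squalene and fatty acid lists lie at -1.19, -1.27 and -1.14 and that of ribosomal proteins at 0.38.

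The same comparison in WT livers shared no array with the one above. In WT, 652 genes rose (3.27%) and 190 fell (0.953%). Genes that rose in both genotypes numbered 80, which was 17.4% of the Atf7-/- rises and 12.3% of the WT rises. Genes that fell in both numbered 62, or 7.78% of the Atf7-/- falls and 32.6% of the WT falls. Of the Atf7-/- rises 20 fell in WT, and of the Atf7-/- falls 20 rose in WT. The WT difference had the same sign as the Atf7-/- difference in 326 of the 460 rises (70.9%) and in 516 of the 797 falls (64.7%). Arntl was among the shared rises, with a WT log2 difference of 2.23 (SE 0.18, adjusted p = 0.000535), and so were Lonrf3 (1.32), Amy1 (1.14) and Lrtm1 (2.03). Shared falls included Dbp (-2.28), Ciart (-3.67) and Gstt2 (-2.08).

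Whether IVF minus natural mating differed between Atf7-/- and WT livers was tested with the interaction, the Atf7-/- difference minus the WT difference. Only natural mating Atf7-/- pups were described as carried by Atf7-/- mothers. The interaction therefore cannot tell IVF from the genotype of the gestating female. The interaction was positive in 945 probe sets and negative in 1203, and by gene in 294 (1.47%) and 843 (4.23%). After each array was centred on its median the probe set counts were 711 and 1628, so that the positive share went from 44% to 30.4%, with a shift of -0.08 in the median gene. The interaction passed in 152 (33%) of the genes that rose in Atf7-/- livers and in 382 (47.9%) of those that fell. It contains the Atf7-/- difference by which these genes were picked, so these shares cannot be compared with those over all genes. In the mevalonate and squalene lists 5 of 7 and 8 of 11 genes had a negative interaction, and the list medians were 0.35 and 0.67 in WT against -1.19 and -1.27 in Atf7-/-. For Sqle the WT arrays stood at 7.38, 7.68 and 9.44 after natural mating and at 9.71, 9.13 and 9.68 after IVF, and the interaction was -3.83 (SE 0.92, adjusted p = 0.0317). It did not pass without any 1 of 9 of the 12 arrays (adjusted p from 0.0514 to 0.0778). For Nsdhl the WT arrays stood at 8.67, 8.93 and 9.63 and 10.12, 10.04 and 10.13, and the interaction was -2.95 (SE 0.55, adjusted p = 0.0102). For Srebf2 they stood at 8.36, 8.43 and 8.48 and 8.81, 8.69 and 8.76, and the interaction was -1.01 (SE 0.13, adjusted p = 0.00151).

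**Figure D5:**
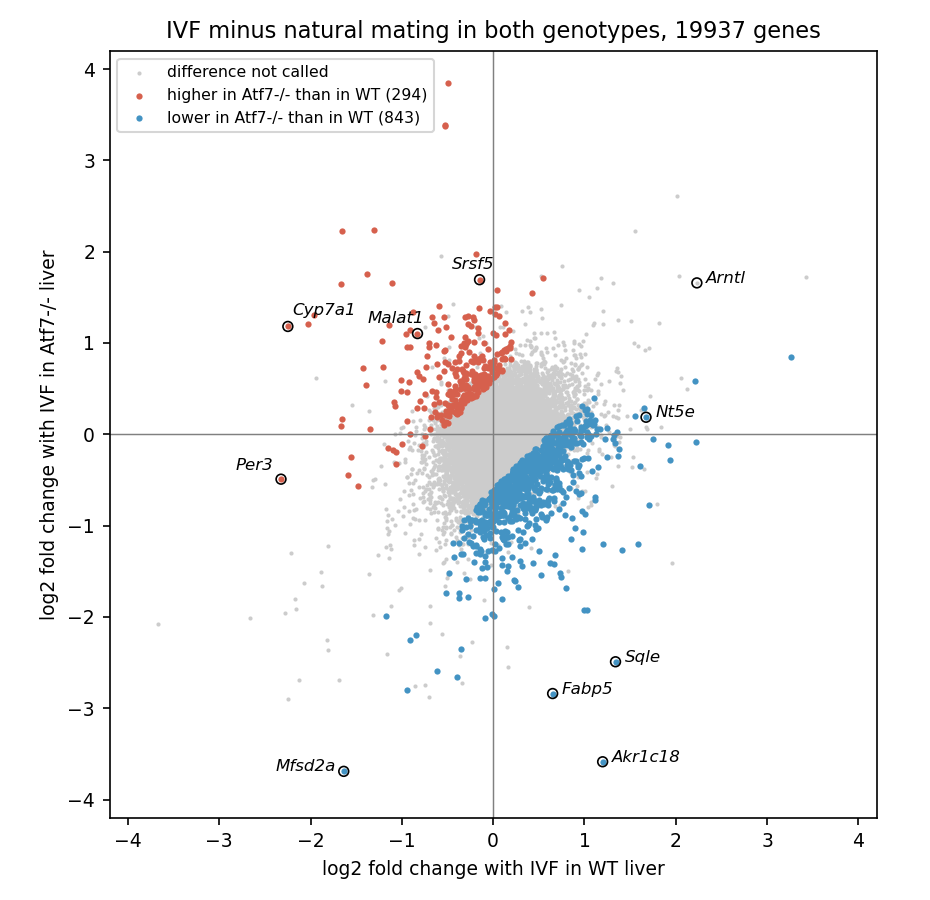
Log2 difference of IVF minus natural mating in WT (horizontal axis) against that in Atf7-/- liver (vertical axis), 1 point per gene, coloured where the interaction passed, with 294 genes higher (red) and 843 lower (blue) in Atf7-/- than in WT. Sqle and Akr1c18 lie at the lower right, Cyp7a1 at the upper left and Arntl, whose interaction did not pass, at the upper right.

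Idi1, which did not pass in Atf7-/- livers (a difference of -1.2, adjusted p = 0.072), rose in WT from 8.17, 8.72 and 9.41 to 10.43, 10.03 and 10.58, a log2 difference of 1.58 (SE 0.39, adjusted p = 0.0328), and the interaction was -2.78 (SE 0.56, adjusted p = 0.0143). Nt5e rose in WT from 8.24, 8.17 and 7.73 to 9.57, 9.77 and 9.82, and the interaction was -1.49 (SE 0.23, adjusted p = 0.00424). In natural mating Atf7-/- livers Nt5e already stood at 9.31, 9.35 and 9.68. Mest rose in WT from 6.83, 7.06 and 6.88 to 7.62, 8.42 and 7.62, and its interaction of -1.42 (SE 0.34, adjusted p = 0.0307) did not pass without natural mating replicate 3 or IVF replicate 2 or 3 of Atf7-/- or natural mating replicate 1 of WT (0.0562 to 0.0625). Clock rose by 0.88 in WT, with an interaction of -0.93 (SE 0.15, adjusted p = 0.00566), and Per3 fell by 2.32, with an interaction of 1.83 (SE 0.32, adjusted p = 0.00714). Fatty acid synthesis had a WT median of -0.12, and the interaction passed in 4 of its 22 genes, none of them Fasn (-2.48, adjusted p = 0.147).

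Positive interactions were larger in 5 small nucleolar RNAs, up to 4.35 (SE 0.49, adjusted p = 0.000975) for Snord118, than in any other named gene. Cyp7a1 came next and stood at 11.28, 11.76 and 11.72 in natural mating WT livers and at 8.6, 10.63 and 8.79 in IVF WT livers. Its interaction was 3.43 (SE 0.81, adjusted p = 0.0292), and it did not pass without any 1 of 7 of the 12 arrays (adjusted p from 0.0551 to 0.0726). The vault RNA Vaultrc5 had 3.27 (SE 0.28, adjusted p = 0.000245). Small nucleolar RNA probe sets had a positive interaction in 34 of 53, with 0 rises and 20 falls in WT. Slc15a2, a peptide transporter, stood at 5.14, 5.05 and 6.17 in the natural mating arrays and 6.97, 6.49 and 6.91 in the IVF arrays in Atf7-/- livers, Akr1c19 at 8.46, 8.04 and 8.27 in the natural mating arrays and 8.59, 9.45 and 8.92 in the IVF arrays and Clec2d, a lectin-like ligand of natural killer receptors, at 9.66, 9.42 and 10.56 in the natural mating arrays and 10.83, 10.51 and 11.16 in the IVF arrays. The Atf7-/- differences of Slc15a2, Akr1c19 and Clec2d were 1.34, 0.73 and 0.95, and their interactions 2.22, 2.15 and 1.86 (adjusted p = 0.0206, 0.00242 and 0.0156). The Atf7-/- rises of Slc15a2 and Clec2d were lost without natural mating replicate 1 or 2 or IVF replicate 1 or 3 (adjusted p from 0.0718 to 0.0995 and from 0.0828 to 0.147), and that of Akr1c19 without any array other than IVF replicate 1 (0.0541 to 0.140). The interaction of Slc15a2 did not pass without natural mating replicate 1 or 2 or IVF replicate 3 of Atf7-/- or IVF replicate 3 of WT (0.0502 to 0.0530). Rdh11, a retinol dehydrogenase of the negative side, stood at 9.76, 10.41 and 10.07 in the natural mating arrays and 7.79, 9.07 and 7.62 in the IVF arrays in Atf7-/- livers, a difference of -1.92 (SE 0.33, adjusted p = 0.00381), with an interaction of -2.92 (SE 0.47, adjusted p = 0.00533).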

How the data were processed

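The deposited table holds log2 expression values that the authors made with RMA in the R package affy from Mouse Gene 1.0 ST arrays; the submitters' processing notes also name limma, and tool versions were not given there. The table was used as deposited. Arrays were assigned to groups by sample title, and 0 columns of other samples were left out. Array data carry no counting depth, so that the number of arrays per group limits the precision.

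A linear model with 4 group means was fitted over the 12 arrays (limma 3.58.1, R 4.3.3, 8 residual degrees of freedom), with contrasts for IVF in Atf7-/-, IVF in WT and their interaction, and Benjamini-Hochberg adjustment over 34760 probe sets. The limits were an adjusted p of at most 0.05 and a log2 difference of at least 0.6, as in the study. The fit was tested on simulated data. The replicates were livers of separate mice, per the methods.

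Platform annotation gave 1 symbol for 21640 probe sets, several for 1321 and none for 11799, and nothing was named from a probe set with several. Of those with 1 symbol, 21553 were found in RefSeq (GRCm38.p6). The brightest probe set stood for each of 19937 symbols. Named genes were the 12 largest rises and falls with non-overlapping groups, the 6 largest interactions each way, up to 4 genes of each list plus its regulators, and genes that the study names, without predicted genes, receptors of smell and small RNAs. Gene lists and members were chosen with earlier results of these data known. Figures were drawn with matplotlib 3.10.9 under Python 3.11.15. Alternatives were a fit of 6 arrays, a replicate block, other variance models, weights, normalizations, filters and limits, and each array left out.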

Additional observations from a re-analysis of the deposited data

Results flagged for a closer look

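IVF minus natural mating differed between Atf7-/- and WT livers, by a test of the difference itself. The interaction was positive in 945 probe sets and negative in 1203. It cannot tell IVF from the genotype of the gestating female. All values below are interactions on the log2 scale, the Atf7-/- difference minus the WT difference, that passed both limits.

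Negative interactions were those of Akr1c18 at -4.79, Sqle at -3.83, Fabp5 at -3.49, Nsdhl at -2.95, Rdh11 at -2.92 and Idi1 at -2.78. Fdps followed at -2.30, Lpin1 at -2.26, Hsd17b7 at -2.25, Mfsd2a at -2.05, Serinc2 at -1.98, Lss at -1.90, Lipg at -1.85, Mvk at -1.27 and Srebf2 at -1.01. The interaction of Mfsd2a did not pass without any 1 of 8 of the 12 arrays (adjusted p from 0.0687 to 0.0987).

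Among other named genes, Dusp1 had -2.0, E2f8 -2.0, Bhlhe40 -1.92, Uprt -1.76, Uck2 -1.57, Nt5e -1.49, Gstt3 -1.45, Mest -1.42, Phlda2 -1.27, Peg10 -1.22 and Clock -0.93. Positive interactions were those of Snord118 at 4.35, Cyp7a1 at 3.43, Vaultrc5 at 3.27, Slc15a2 at 2.22, Akr1c19 at 2.15, Malat1 at 1.93, Clec2d at 1.86, Srsf5 at 1.84, Per3 at 1.83, Rps3a1 at 1.37, Apom at 1.23 and Akr1d1 at 0.97. In most of the genes that rose or fell in Atf7-/- livers, the natural mating Atf7-/- arrays lay beyond all other arrays (313 of 460 and 613 of 797), and why was not tested.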

How the results depend on the processing

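Probe sets higher and lower in Atf7-/- livers after IVF numbered 1119 and 1234 with the 6 Atf7-/- arrays alone, 1140 and 1226 with an intensity trend and robust variances, 1346 and 1392 with array weights, 1075 and 1264 with median centring, 1145 and 1158 with further quantile normalization and 1137 and 1236 without the dimmest probe sets. Rises numbered 650 among probe sets with 1 symbol, 492 with the brightest probe set of each symbol and 693 at an adjusted p of 0.01. With no size limit there were 2127 rises and 2371 falls, with a limit of 1 there were 341 and 365, and by distinct symbol 512 and 811. Without one array the rises ranged from 799 to 1317 and the falls from 928 to 1304, and 583 and 739 passed in all 6 such fits.

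For the interaction, positive and negative counts were 311 and 439 at an adjusted p of 0.01 and 504 and 482 with a size limit of 1, where the positive count was the larger one. The positive count was 467 among probe sets with 1 symbol, 377 with the brightest probe set and 319 by distinct symbol. Without one array the counts ranged from 624 (without IVF replicate 3 of Atf7-/-) to 1141 and from 819 to 1466. Among the genes named here, no difference that passed changed sign under the alternatives run, and other probe sets were not compared for sign. Changes of variance model, filter or limits leave a difference as it is, so its sign could not change there. Of differences that did not pass, array weights turned Srebf1 to 0.0155 and Dnmt3a to 0.0152, and further quantile normalization Dnmt3a to 0.0066. Without one array the differences ranged from -0.20 to 0.20 for Srebf1, -0.16 to 0.0122 for Clock, -0.0316 to 0.0502 for Cad, -0.997 to 0.0249 for Mki67, -0.43 to 0.68 for Top2a, -0.61 to 0.26 for Cdk1, -0.10 to 0.17 for Dnmt1 and -0.0932 to 0.0542 for Dnmt3a.

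With the replicate block the counts were 1135 and 1210, and 896 and 1124 for the interaction. Same-numbered Atf7-/- arrays had residual correlations of -0.124 to -0.0292, and 0 of 6 arrays correlated best with their own number, so the numbers give no pairing for IVF in Atf7-/-. Across genotypes, same-numbered arrays of one mode of conception had correlations of 0.0321 to 0.239, all above 0 but not all above 0.1. Among named genes the block ended the calls of Cyp3a16 (adjusted p = 0.0553), Insig1 (0.0508), Insig2 (0.0675), Scd1 (0.0696), Glul (0.0592) and Akr1c19 (0.0666) and gave one to Idi1 (0.0460). With the 6 arrays alone Sult1e1, Cyp3a16, Sqle (0.0540), Pmvk, Me1, Fasn (0.0705), Scd1, Pklr, Gstp1, Akr1c19 and Clec2d did not pass.

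Among gene lists, median centring left 2 complement rises in place of 4, and the mean of a gene's probe sets gave 2 stellate cell marker rises in place of 0. Elsewhere both alternatives moved list counts by at most 1, or by at most 1.5 times. List counts with an array left out were added after the data were seen.

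Each group had 3 arrays, differences near the limits depended on single arrays, and a p that missed the limit does not show equal levels.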
